A study of Homo sapiens with 12 samples.

Results

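The HOX cluster genes were followed across 12 RNA-seq libraries of 2 colon cancer lines. They were chosen by name: 38 of the 39 protein-coding HOX genes were examined among the 60617 genes listed, with 10 in the HOXA cluster on chromosome 7, 10 in HOXB on chromosome 17, 9 in HOXC on chromosome 12 and 9 in HOXD on chromosome 2. The other gene is not reported here.

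HOX genes encode homeodomain transcription factors that give cells their position along the body axis. Genes of the same number in different clusters are paralogs, and their order in a cluster follows the order in which they are used from head to tail: groups 1 to 3 are called anterior here, groups 4 to 8 central and groups 9 to 13 posterior. Adult cells usually keep the pattern of the region they came from. In the gut, posterior members mark the hindgut and the colon, and CDX2, a homeodomain factor of the related ParaHox family, is a known activator of several HOX genes there. Polycomb proteins keep unused members silent and trithorax proteins keep used ones active.

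HCT 116p53-/- cells are a human colon cancer line from which p53 was deleted. The uL3ΔHCT 116p53-/- line derives from it and is described in the labels as a knockout of RPL3, the gene of ribosomal protein uL3, and by the study as stably silenced. Cells of both lines lacked p53 and received vehicle or 5 nM Act D, an inhibitor of rRNA transcription, for 24 h, which gave 4 groups of 3 libraries described as biological replicates. Each line is 1 cell population, so that the loss of uL3 and any other difference between the populations cannot be told apart.

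RPL3 itself (ENSG00000100316, chr22:39312882-39320389) did not separate the lines in the direction of its label. Its level was 1138 ± 15.3 CPM (SD, n = 3) in vehicle-treated HCT 116p53-/- cells and 1242 ± 82.5 CPM (SD, n = 3) in the vehicle-treated libraries labelled uL3Δ, a log2 difference of 0.13 (SE 0.08, adjusted p = 0.155, edgeR). The total per library was between 10087925 and 21138886 expected counts. The lines also differed widely elsewhere: 71.3% of the 15692 genes tested passed an adjusted p of 0.05 between the lines with vehicle. The summed level of 15 mesenchymal markers was 62.9 to 75.6 CPM in vehicle-treated HCT 116p53-/- libraries and 2606 to 2680 CPM in those labelled uL3Δ, with TWIST1, THY1 and DCN undetected in both. VIM alone held 2237 CPM of the latter, and of 11 markers tested 8 were higher and 2, ACTA2 and COL1A1, lower. LUM, among the 8, was tested through its reads in the uL3Δ libraries, which fixed its direction. The sum of 13 colon epithelial markers was 2487 to 2690 CPM against 1629 to 1816 CPM, with CDX1, VIL1 and CDH17 undetected in both, GPA33 in the first and CDX2, LGALS4 and KRT20 in the second. The part of these differences in the HOX values below was not tested.

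Promoter windows of 300 bases (250 before and 50 after the transcription start, RefSeq, GRCh38.p14) were matched to 20 of the 38 members, in 26 distinct windows. Most were of HOXA genes, with several of HOXA3. HOXB was covered by HOXB1 alone and HOXC by the shared window of HOXC4 and HOXC5 alone. HOXC10, HOXC11, HOXD9 and HOXB13 had none, so the values below describe the matched windows and not the HOX genes as a set. CG pairs were counted because CG-rich promoters are typical of Polycomb-controlled genes, and the windows of the members held 0 to 44 of them (median 22.5) against a median of 14 over the windows of all genes. The window of HOXD1 is shown because HOXD1, with vehicle, had no count in HCT 116p53-/- cells and was present in the other line, and that of HOXC4 because it was detected in HCT 116p53-/- cells alone. RefSeq lists the latter window for HOXC5 too, whereas the GENCODE gene of HOXC5, on which its coordinates rest, begins outside it at chr12:54033050-54035361. Capitals mark the CG pairs, 36 in the window of HOXD1 (chr2:176188418-176188717, plus strand) and 15 in that of HOXC4 and HOXC5 (chr12:54016638-54016937, plus strand).
HOXD1: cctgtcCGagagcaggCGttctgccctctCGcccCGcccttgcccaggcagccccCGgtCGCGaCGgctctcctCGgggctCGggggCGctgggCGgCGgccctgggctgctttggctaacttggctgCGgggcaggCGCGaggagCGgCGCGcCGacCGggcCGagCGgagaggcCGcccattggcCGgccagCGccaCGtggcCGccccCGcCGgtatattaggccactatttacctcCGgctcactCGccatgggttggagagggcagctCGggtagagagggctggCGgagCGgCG
HOXC4 and HOXC5: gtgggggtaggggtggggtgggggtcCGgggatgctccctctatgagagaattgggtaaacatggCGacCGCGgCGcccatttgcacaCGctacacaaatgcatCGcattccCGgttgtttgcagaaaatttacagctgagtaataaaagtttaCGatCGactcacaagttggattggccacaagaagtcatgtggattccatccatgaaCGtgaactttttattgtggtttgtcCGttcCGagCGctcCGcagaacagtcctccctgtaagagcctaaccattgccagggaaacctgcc

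The letters TTTATG, found in sites bound by CDX factors, were searched on both strands because CDX2 was nearly absent from one line. They occurred in 3 of the 26 windows, those of HOXA3, HOXA9 and HOXD8, and in 10.6% of the 34943 distinct windows of all genes. The letters TGATTNAT, a site of PBX and HOX proteins, were in 2 windows (HOXA2 and HOXD11) and in 2.82% of all windows, and CACCTG, a site of ZEB factors, was in 1 (HOXA7) and in 20.6%. The HOXA3 window held TTTATG 3 times, no member window held more than 1 kind of motif, and a match is a description of the letters only. The window of HOXA9 (chr7:27165488-27165787, minus strand), the member with the highest level in both lines, is shown with its 1 match in capitals, which reads TTTATG on the opposite strand.
HOXA9: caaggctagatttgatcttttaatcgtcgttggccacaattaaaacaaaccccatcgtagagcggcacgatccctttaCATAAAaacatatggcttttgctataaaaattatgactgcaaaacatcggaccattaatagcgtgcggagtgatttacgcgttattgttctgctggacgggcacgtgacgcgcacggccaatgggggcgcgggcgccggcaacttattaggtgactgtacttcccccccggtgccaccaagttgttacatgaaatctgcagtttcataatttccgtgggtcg

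A member was taken as detected in a group when at least 3 counts were found in at least 2 of its 3 libraries. By this measure 24 of the 38 members were detected in vehicle-treated HCT 116p53-/- cells, 26 with Act D, 30 in the vehicle-treated libraries labelled uL3Δ and 28 in those with Act D. In all 4 groups 23 members were detected, among them 9 of 10 HOXA and 8 of 10 HOXB genes, the same members in both lines. HOXC11, HOXD1, HOXD9 and HOXD11 were detected in both groups labelled uL3Δ and in neither group of HCT 116p53-/- cells, and HOXC4 showed the opposite. HOXD11 rested on few reads and was not tested between the lines. With vehicle its summed counts were 0 in HCT 116p53-/- libraries and 11 in those labelled uL3Δ. This was at least 1.27-fold higher, taking 3 counts per library as the floor. With Act D the sums were 3 and 14. HOXA2, HOXB1, HOXB2, HOXC12, HOXD4 and HOXD12 were detected in no group, and HOXB1 and HOXD12 had 0 counts in all 12 libraries. The other 4, HOXC5, HOXD3, HOXD10 and HOXD13, passed in some groups with few reads.

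Detection differed between the lines in the HOXC and HOXD clusters. With vehicle, 1 of its 9 members, HOXD8, was detected in HCT 116p53-/- cells and 6 in the libraries labelled uL3Δ, whereas the numbers were 9 and 9 in HOXA, 8 and 8 in HOXB, and 6 and 7 in HOXC. HOXD10 had 0, 0 and 2 counts against 4, 6 and 5, and HOXD13 had 4, 1 and 1 against 2, 7 and 15. HOXD3, an anterior member, had 0, 0 and 2 counts against 1, 1 and 10, and was detected in HCT 116p53-/- cells with Act D alone (2, 3 and 5 counts). The cluster with the larger gain depended on the rule: at 10 counts in at least 2 libraries HOXC went from 4 to 7 members and HOXD from 1 to 3, and at 1 CPM HOXC went from 3 to 6 and HOXD from 1 to 3. At 0.5 TPM the lines hardly differed, with 17 and 18 members detected in all. Depth sets what could be seen, since 3 counts corresponded to between 0.15 and 0.348 CPM, and a gene under that level was not detectable rather than shown to be off.

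**Figure D1:**
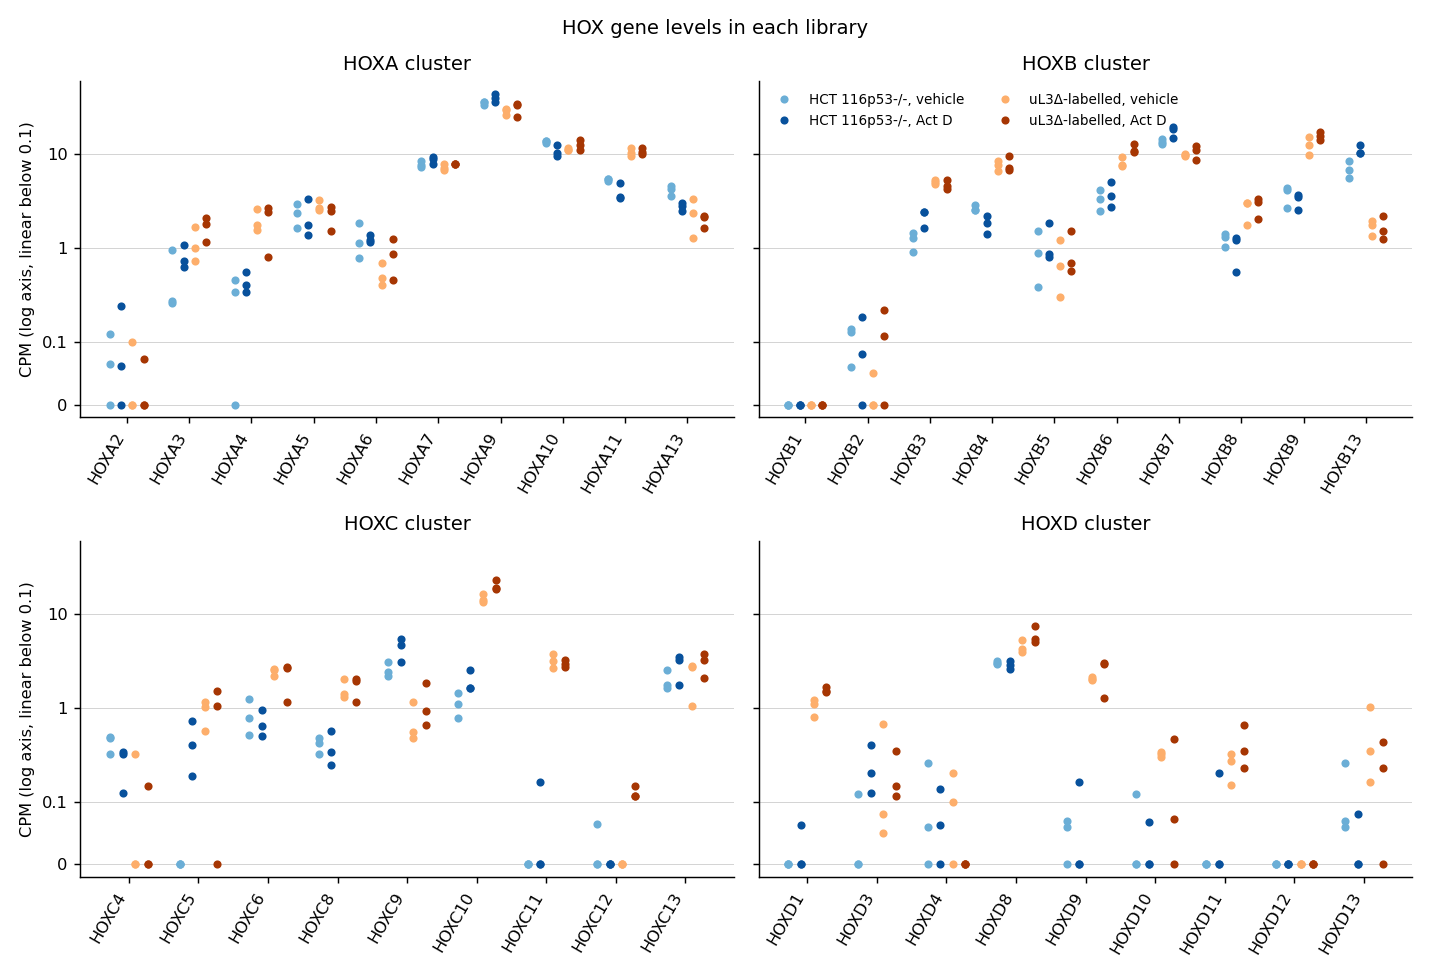
Level of each member in CPM (counts scaled to library size with TMM factors) in every library, on a log axis that is linear below 0.1; each point is 1 library and each panel 1 cluster, with members in paralog order. The blue and orange points overlap for HOXA5, HOXA7, HOXB5 and HOXC13 and lie far apart for HOXC10, HOXC11, HOXD1 and HOXD9.

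Compared per length, as the deposited TPM allows, a few posterior and central members made up most of the HOX transcripts. HOXA9, known as a driver in leukaemia, was first in every group, at 19.8, 21.1 and 18.6 TPM in vehicle-treated HCT 116p53-/- cells and 13.6, 10.6 and 14.6 TPM in the libraries labelled uL3Δ. HOXB7 (8.59 ± 0.947 TPM, SD, n = 3), HOXA10 (5.58 ± 0.0493) and HOXA7 (3.21 ± 0.131) came next in HCT 116p53-/- cells. The order differed in the libraries labelled uL3Δ, where HOXC10 was second at 5.94 ± 1.74 TPM (SD, n = 3), ahead of HOXB7 at 4.86 ± 0.850 and HOXA10 at 3.71 ± 0.976. The spreads of these last values overlap, so that the order of these 3 is not distinguished there.

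The summed TPM of all 38 members was nearly the same in both lines with vehicle, at 56.3 ± 1.98 and 53.6 ± 6.94 TPM (SD, n = 3), while its division among clusters was not. HOXA took 59.3% to 63.4% of the sum in HCT 116p53-/- libraries and 45.4% to 47.9% in those labelled uL3Δ. HOXC took 6.23% to 8.70% and 14.2% to 20.3%, and HOXD took 2.46% to 3.87% and 5.66% to 6.27%. HOXB overlapped, at 27.3% to 30.1% and 28.6% to 32.1%. Posterior members held 60.8% ± 0.0833 and 57.7% ± 1.52 (SD, n = 3) of the sum and anterior members 1.61% ± 0.417 and 3.79% ± 0.472. On the TMM-scaled CPM scale used in the tests, which is not per length, the sum over the members was 109.6 to 121 CPM in HCT 116p53-/- libraries and 146 to 156 CPM in the uL3Δ libraries, without overlap. TPM is a share of the whole library, so these values are descriptions within each library and were not tested.

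**Figure D2:**
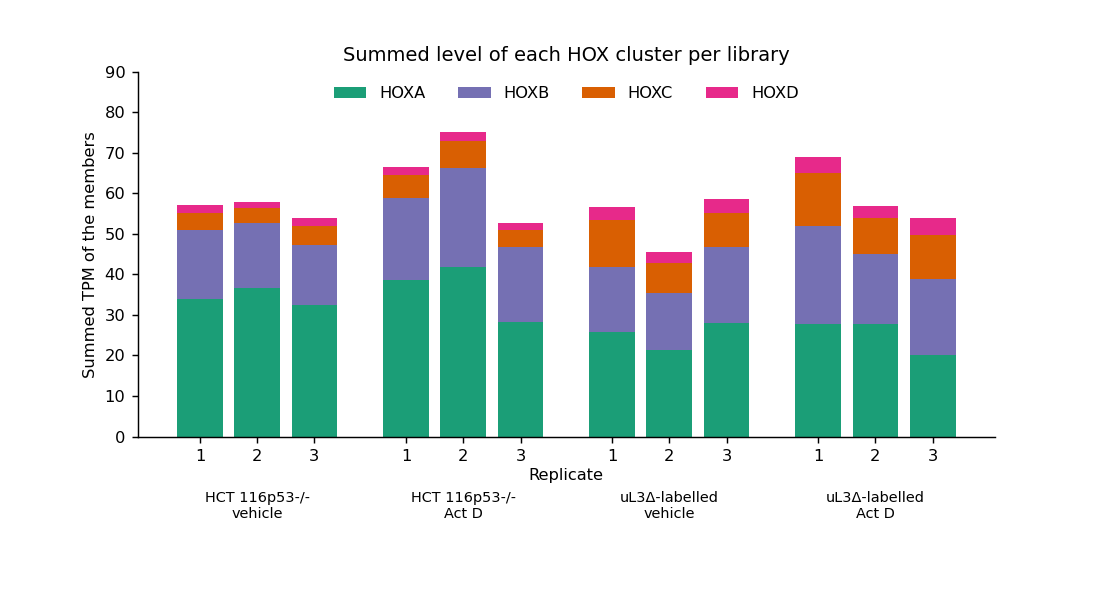
Summed TPM of the members of each cluster, stacked, for each of the 12 libraries by replicate number. Total heights overlap between groups, while the HOXC and HOXD segments are taller in the 6 libraries labelled uL3Δ.

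The lines were compared with vehicle to see how the HOX pattern differed at baseline. Of the 38 members, 27 had enough reads to be tested, and 15 passed as higher in the uL3Δ libraries and 6 as lower (edgeR quasi-likelihood test, adjusted p under 0.05). Across all genes tested 71.3% passed, 35.1% as higher and 36.2% as lower, and the 77.8% of tested members that passed was close to this background. For 22 members the 3 libraries of each line did not overlap, against 72.5% of all genes. The median log2 difference of the tested members was 1.08 and that of all genes -0.021. HOXA4, HOXC5, HOXC8, HOXC11, HOXD1 and HOXD9 were tested through their reads in the uL3Δ libraries. Counts over tested members therefore lean in their direction. Bulk RNA does not tell fewer cells with a transcript from less transcript per cell.

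Members with a higher level in the libraries labelled uL3Δ were found in each class of paralogs, where 35.1% of all genes were higher and 36.2% lower. Of the 3 anterior members tested 2, HOXB3 and HOXD1, were higher and 0 lower, of the 13 central ones 8 and 2, and of the 11 posterior ones 5 and 4. Of the 12 adjacent pairs in which both members passed the test, 6 had the same direction and 6 opposite directions. Several pairs, and each class, include members tested through their reads in the uL3Δ libraries, whose direction was fixed. These counts therefore do not measure how classes differ or how often neighbours move together.

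In the HOXC cluster 5 of 7 tested members were higher and 1 was lower. HOXC10 (chr12:53985065-53990279), a posterior member of hindlimb and caudal tissues, had levels of 1.43, 1.10 and 0.785 CPM in HCT 116p53-/- libraries and 16.3, 13.9 and 13.2 CPM in those labelled uL3Δ, without overlap. The log2 difference was 3.70 (SE 0.21, adjusted p = 3.72e-11, edgeR). HOXC11 (chr12:53973126-53977643), the next gene of the cluster, had 0 counts in all 3 HCT 116p53-/- libraries and 46, 63 and 39 in those labelled uL3Δ. Its mean level was at least 16.3-fold higher in the latter, taking 3 counts per library as the floor (adjusted p = 1.00e-07, edgeR).

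The 2 central neighbours HOXC6 and HOXC8 were also higher. HOXC6 had 8, 18 and 13 counts against 32, 44 and 37 (log2 difference 1.51, SE 0.39, adjusted p = 0.0021, edgeR) and HOXC8 had 5, 7 and 7 against 25, 26 and 21 (1.91, SE 0.41, adjusted p = 0.000465). HOXC8 was tested through its reads in the uL3Δ libraries, which fixed its direction. HOXC9, which lies between HOXC8 and HOXC10, went the other way. It had 34, 35 and 51 counts in HCT 116p53-/- libraries and 6, 11 and 17 in those labelled uL3Δ, with a log2 difference of -1.81 (SE 0.39, adjusted p = 0.000486, edgeR). The most posterior member, HOXC13, which serves in hair and nail, had 27, 37 and 27 counts against 13, 55 and 40, and the groups overlapped (log2 difference 0.17, SE 0.36, adjusted p = 0.687, edgeR).

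HOXC4 and HOXC5 were detected at a few reads. HOXC4 had 5, 7 and 8 counts against 4, 0 and 0 and was not tested, and the ratio of its summed counts, uL3Δ over HCT 116p53-/-, was 0.197 with a 95% counting interval of 0.0489 to 0.588. HOXC5 had 0 counts in all 3 vehicle-treated HCT 116p53-/- libraries and 7, 23 and 15 in those labelled uL3Δ, at least 4.68-fold higher (adjusted p = 0.000459, edgeR). Its counts are uncertain, since 66.4% of the 50-base words of its transcript also occur in read-through transcripts of the cluster. RSEM's posterior SD was 10.0% to 20.3% of its count where it had at least 10 counts.

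Of the 9 HOXD members 3 were tested, HOXD1 and HOXD9 through their reads in the uL3Δ libraries, which fixed their direction. HOXD1 (chr2:176188668-176190907), the anterior end of its cluster, had 0 counts in each HCT 116p53-/- library and 10, 22 and 18 in those labelled uL3Δ, at least 5.36-fold higher (adjusted p = 3.97e-06, edgeR). HOXD9 (chr2:176122719-176124937), a posterior limb and spinal cord gene, had 0, 1 and 1 counts against 25, 42 and 29. The ratio of its summed counts was 47.3, with a counting interval of 12.7 to 396 (adjusted p = 2.16e-06, edgeR). For both genes the libraries of the 2 lines did not overlap. Because of the way they entered the test, this adds no measure of how strongly the lines differ. HOXD8, the 1 member of the cluster detected in both lines with vehicle, had 48, 43 and 49 counts against 49, 105 and 63. Its level was 1.49-fold higher (log2 difference 0.58, SE 0.21, adjusted p = 0.0192, edgeR), a call that was lost with scaling by library size alone and without replicate 3 of vehicle-treated HCT 116p53-/- cells or replicate 2 of the vehicle-treated libraries labelled uL3Δ (adjusted p up to 0.163).

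**Figure D3:**
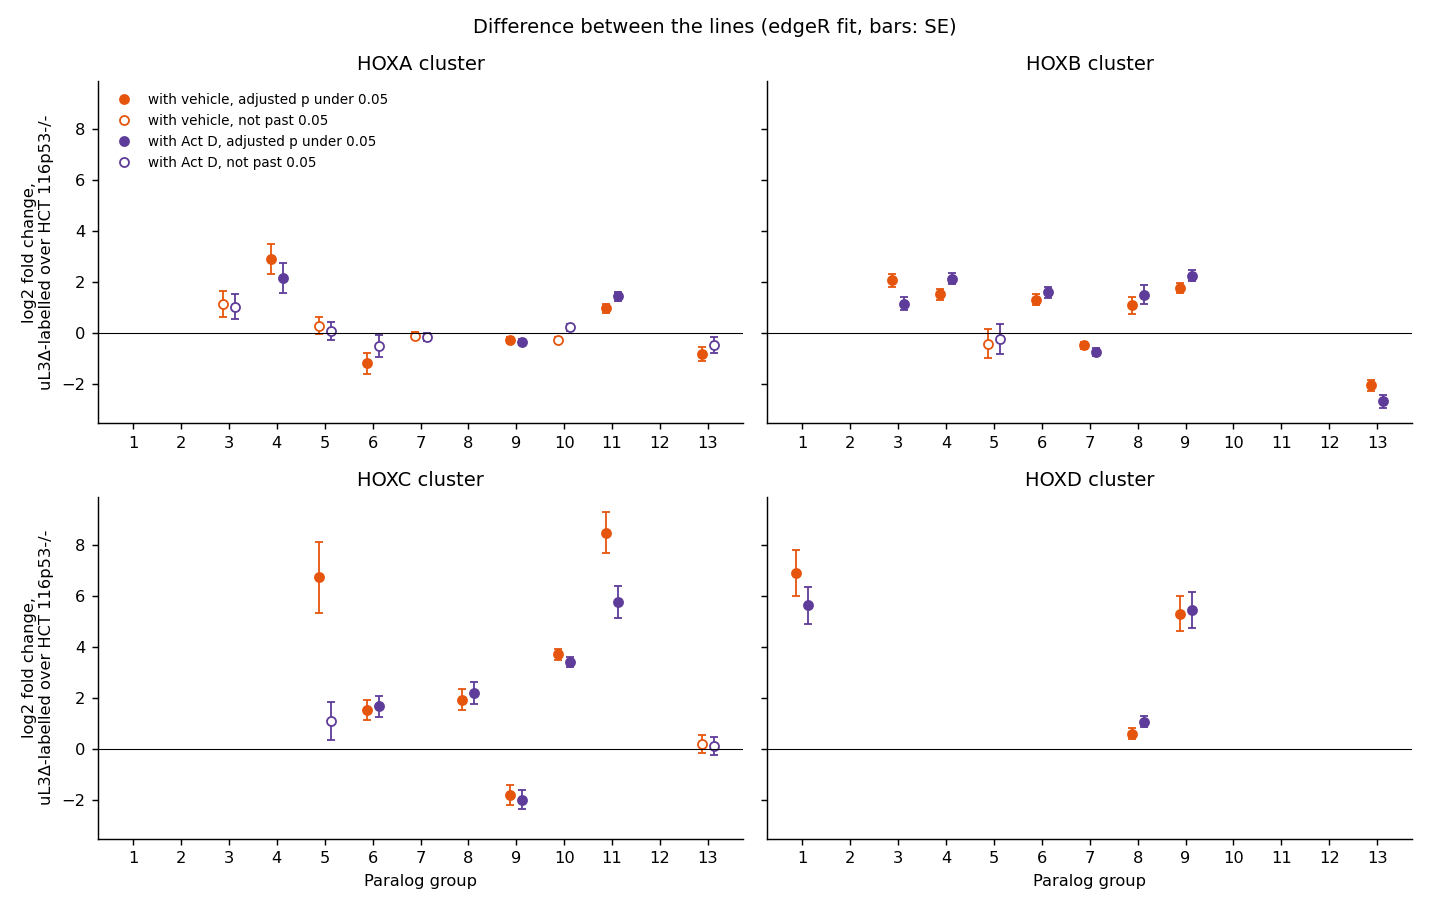
Log2 fold change between the lines (edgeR fit, bars are the SE) for the 27 tested members by paralog group, with vehicle in orange and with Act D in purple; filled points passed an adjusted p of 0.05. The HOXC and HOXD points lie mostly above 0, except HOXC9; the heights of HOXC5, HOXC11, HOXD1 and HOXD9 rest on counts at or near 0 in HCT 116p53-/- cells and are not estimates of size.

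The HOXB cluster split by gene. Of 8 tested members HOXB3, HOXB4, HOXB6, HOXB8 and HOXB9 were higher and HOXB7 and HOXB13 lower. HOXB9 (chr17:48621156-48626358), a posterior gene, had 4.15, 4.34 and 2.66 CPM against 9.80, 12.5 and 15.1 CPM (log2 difference 1.75, SE 0.20, adjusted p = 3.66e-07, edgeR). HOXB4, which is used to expand blood stem cells, had 2.53, 2.55 and 2.90 CPM against 7.63, 8.41 and 6.68 CPM (1.51, SE 0.20, adjusted p = 2.88e-06). The anterior HOXB3 differed by 2.06 (SE 0.25, adjusted p = 7.38e-07), HOXB6 by 1.30 (SE 0.22) and HOXB8 by 1.08 (SE 0.34, adjusted p = 0.00906). HOXB3 and HOXB6 overlap on the same strand and share transcript sequence, and the posterior SD of HOXB3 was up to 8.5% of its count.

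HOXB13 (chr17:48724763-48728750), which lies apart from the rest of its cluster and is known from the prostate and the distal colon, was the member that was lowest relative to HCT 116p53-/- cells among those tested. It had 87, 124 and 113 counts there and 22, 27 and 29 in the libraries labelled uL3Δ, 4.17-fold fewer after scaling (log2 difference -2.06, SE 0.23, adjusted p = 2.79e-07, edgeR). HOXB7, the second most abundant HOX transcript of HCT 116p53-/- cells, was 14.6, 12.9 and 13.3 CPM against 9.80, 9.66 and 9.93 CPM (-0.48, SE 0.14, adjusted p = 0.00519). These groups did not overlap. HOXB5 had 6, 13 and 25 counts against 8, 6 and 18, with overlap and no call (adjusted p = 0.527).

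In the HOXA cluster, the most abundant by TPM, 2 of 9 tested members were higher and 3 lower. HOXA11 (chr7:27181157-27185232), needed for limb and uterus, had 5.38, 5.51 and 5.19 CPM against 11.6, 10.2 and 9.66 CPM, 1.95-fold higher (log2 difference 0.96, SE 0.16, adjusted p = 2.59e-05, edgeR). HOXA4 had 7, 5 and 0 counts against 22, 52 and 23 (2.90, SE 0.60, adjusted p = 0.000311, edgeR), with 41.6% of its 50-base words shared with other transcripts of the locus. HOXA4 was tested through its reads in the uL3Δ libraries, which fixed its direction. HOXA13, the hindgut and distal limb gene, had 4.28, 4.61 and 3.56 CPM against 1.29, 2.35 and 3.31 CPM, a lower level with a log2 difference of -0.82 (SE 0.28, adjusted p = 0.0129). HOXA6 (-1.20, SE 0.43, adjusted p = 0.0196, edgeR) and HOXA9 (-0.28, SE 0.12, adjusted p = 0.0409) were lower too. HOXA6 was tested through its reads in HCT 116p53-/- libraries, which fixed its direction. The calls of HOXA13, HOXA6 and HOXA9 rested on single libraries. HOXA13 was lost without replicate 1 of the vehicle-treated libraries labelled uL3Δ (adjusted p = 0.0627, edgeR), and HOXA6 without that one, replicate 3 of the same group or replicate 2 of vehicle-treated HCT 116p53-/- cells (up to 0.137). HOXA9 was lost without replicate 2 or 3 of vehicle-treated HCT 116p53-/- cells, replicate 1 of those with Act D or replicate 2 of the vehicle-treated libraries labelled uL3Δ, with no filter and with the replicate block (up to 0.158).

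HOXA3, HOXA5, HOXA7 and HOXA10 did not pass. HOXA7 was 7.26, 8.54 and 7.61 CPM against 7.87, 6.86 and 7.09 CPM (log2 difference -0.11, SE 0.14, adjusted p = 0.505, edgeR), and 61.9% of its 50-base words also occur in HOXA-AS3, its opposite-strand neighbour. HOXA10 was 13.1 to 13.9 CPM in the first line against 10.96 to 11.75 CPM, without overlap but short of the threshold (-0.28, SE 0.13, adjusted p = 0.0586). HOXA3 had 4, 4 and 16 counts against 9, 20 and 25 (1.15, SE 0.51, adjusted p = 0.0507) and HOXA5 25, 43 and 39 against 33, 51 and 48 (adjusted p = 0.453).

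With Act D the lines showed the same split. Of 27 tested members 14 passed as higher in the uL3Δ libraries and 4 as lower, where 70.4% of all genes passed (35.1% higher, 35.3% lower), and all 18 had also passed with vehicle, in the same direction; these 2 comparisons use different libraries of the same 2 lines. For 20 members the lines did not overlap, against 74.1% of all genes. HOXC10 was 1.62, 2.50 and 1.61 CPM against 22.8, 18.4 and 18.7 CPM (log2 difference 3.38, SE 0.20, adjusted p = 5.58e-11, edgeR). HOXB13 had 164, 154 and 156 counts against 30, 11 and 13 (-2.69, SE 0.24, adjusted p = 1.60e-08). In both genes the libraries of the lines did not overlap. HOXA9 was lower again (-0.36, SE 0.12, adjusted p = 0.0112), except without replicate 2 of Act D-treated HCT 116p53-/- cells (adjusted p = 0.0598).

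HOXC11, HOXD1 and HOXD9 were at or near 0 in HCT 116p53-/- cells with Act D too. HOXC11 had 0, 0 and 2 counts against 44, 24 and 25 (ratio of summed counts 64.6, counting interval 17.4 to 542), HOXD1 had 1, 0 and 0 against 23, 13 and 13 (68.1, 11.7 to 2745) and HOXD9 had 0, 0 and 2 against 41, 11 and 25 (53.5, 14.3 to 449.8). Adjusted p was 5.62e-07, 3.30e-06 and 1.82e-06 for these genes (edgeR). HOXC5 was detected in both lines with Act D, and HOXD10 and HOXD13, detected with vehicle in the uL3Δ line, were detected in neither. HOXA6, HOXA13 and HOXC5 passed with vehicle and not with Act D. For HOXA13 the levels with Act D were 2.49, 2.84 and 3.06 CPM against 2.18, 2.17 and 1.62 CPM (log2 difference -0.47, SE 0.31, adjusted p = 0.18, edgeR), and whether the difference between lines itself changed is the interaction, given with the Act D results.

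**Figure D4:**
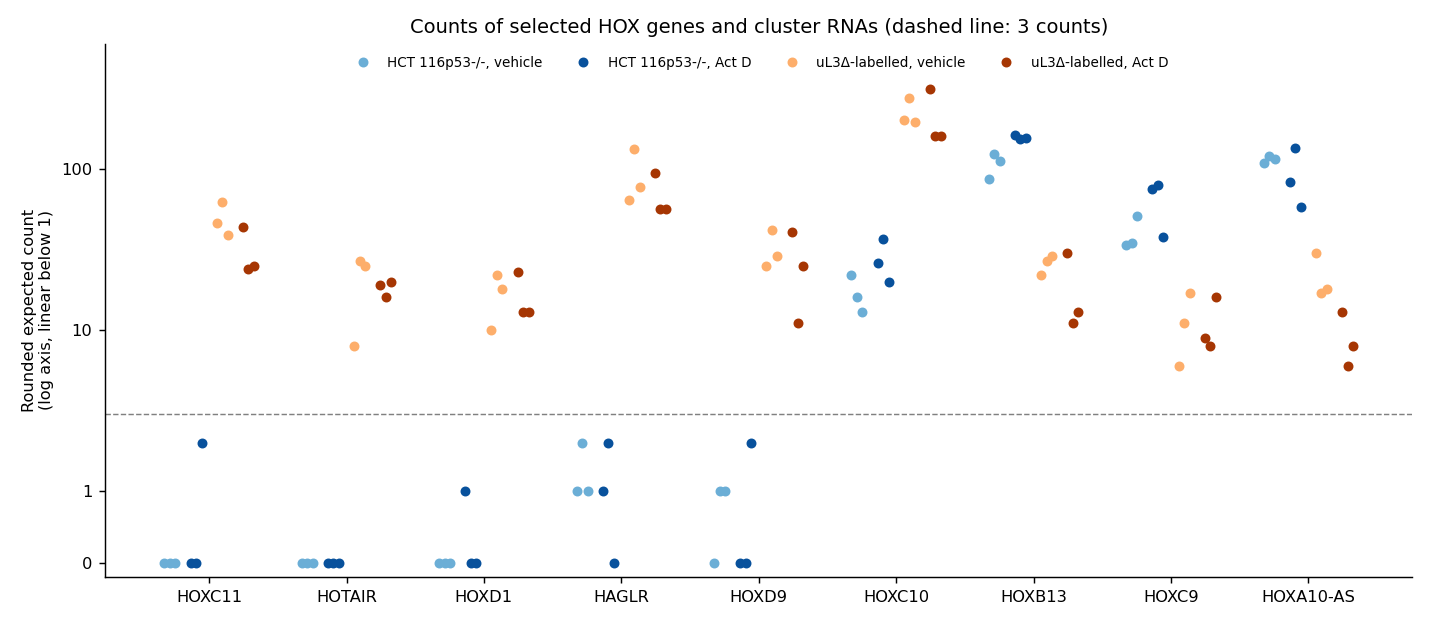
Rounded expected counts of HOXC11, HOXD1, HOXD9, HOXC10, HOXB13 and HOXC9 and of the cluster RNAs HOTAIR, HAGLR and HOXA10-AS in each library, on a log axis that is linear below 1; the dashed line is 3 counts. HOXC11, HOTAIR, HOXD1, HAGLR and HOXD9 had at most 2 counts in any HCT 116p53-/- library and at least 8 in each library labelled uL3Δ.

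Act D was compared with vehicle in each line to see whether HOX transcripts responded to the drug. In HCT 116p53-/- cells 4 of 27 tested members were higher and 0 lower, where 18.7% of all genes passed, 7.59% as higher and 11.1% as lower. For 9 members the groups did not overlap, against 38.2% of all genes. At an unadjusted p under 0.05 there were 9, 6 higher and 3 lower, and DESeq2 gave 3 higher and 0 lower. HOXB13 had levels of 5.64, 8.54 and 6.82 CPM with vehicle and 10.2, 10.4 and 12.5 CPM with Act D, 1.58-fold higher (log2 difference 0.66, SE 0.19, adjusted p = 0.0228, edgeR). HOXB3 was 0.907, 1.45 and 1.27 CPM against 1.62, 2.43 and 2.41 CPM (0.83, SE 0.27, adjusted p = 0.0392). HOXC10 was 1.43, 1.10 and 0.785 CPM against 1.62, 2.50 and 1.61 CPM (0.80, SE 0.27, adjusted p = 0.0495).

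HOXC5 went from 0 counts in all 3 vehicle libraries to 3, 6 and 9 with Act D (adjusted p = 0.0238, edgeR). Genes other than HOX that were near absent in vehicle-treated HCT 116p53-/- cells, at under 1% of the level in the libraries labelled uL3Δ, stood in the Act D libraries at a median of 0.795% to 1.05% of that level (62 genes), against 0.311% to 0.403% with vehicle, the values that chose them. The mean of HOXC5 in the Act D libraries was 51.2% of its mean in the uL3Δ libraries given Act D. The latter mean was 0.857 CPM, whereas the 62 genes had at least 20 CPM in the uL3Δ libraries with either treatment. These percentages therefore rest on unlike levels, and the source of the HOXC5 reads was not tested. None of the 4 calls held under every alternative, and without replicate 3 of vehicle-treated HCT 116p53-/- cells 0 members passed as higher. HOXB13 was also lost with scaling by library size alone and without replicate 1 of that group or replicate 3 with Act D (adjusted p up to 0.106, edgeR), and HOXC5 without any 1 of the vehicle libraries or replicate 3 with Act D (up to 0.0711). HOXB3 was lost under 9 of 20 alternatives (up to 0.151) and HOXC10 under 12 of 20 (up to 0.255).

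In the uL3Δ libraries 0 of 27 members passed for Act D (edgeR), where 11.9% of all genes did, 3.51% as higher and 8.4% as lower. For 3 members the groups did not overlap, against 27.6% of all genes. At an unadjusted p under 0.05 there were 2, HOXB6 and HOXC10, and DESeq2 gave 0. HOXC10 was 16.3, 13.9 and 13.2 CPM with vehicle and 22.8, 18.4 and 18.7 CPM with Act D, without overlap (log2 difference 0.48, SE 0.16, adjusted p = 0.0604, edgeR). HOXA9 was 29.3, 26.3 and 30.5 CPM against 33.2, 34.1 and 24.8 CPM, which overlapped (0.11, SE 0.12, adjusted p = 0.634). The difference between the 2 responses passed for 0 of 27 members (interaction, edgeR), where 6.53% of all genes passed, 3.3% in the positive and 3.23% in the negative direction. At an unadjusted p under 0.05 there were 3, HOXA10, HOXB3 and HOXC5, and DESeq2 gave 0. For HOXB3 the interaction was -0.92 on the log2 scale (SE 0.35, adjusted p = 0.13), so that a call in HCT 116p53-/- cells and none in the other line did not show a difference between them. For HOXA13 it was 0.35 (SE 0.41, adjusted p = 0.682).

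**Figure D5:**
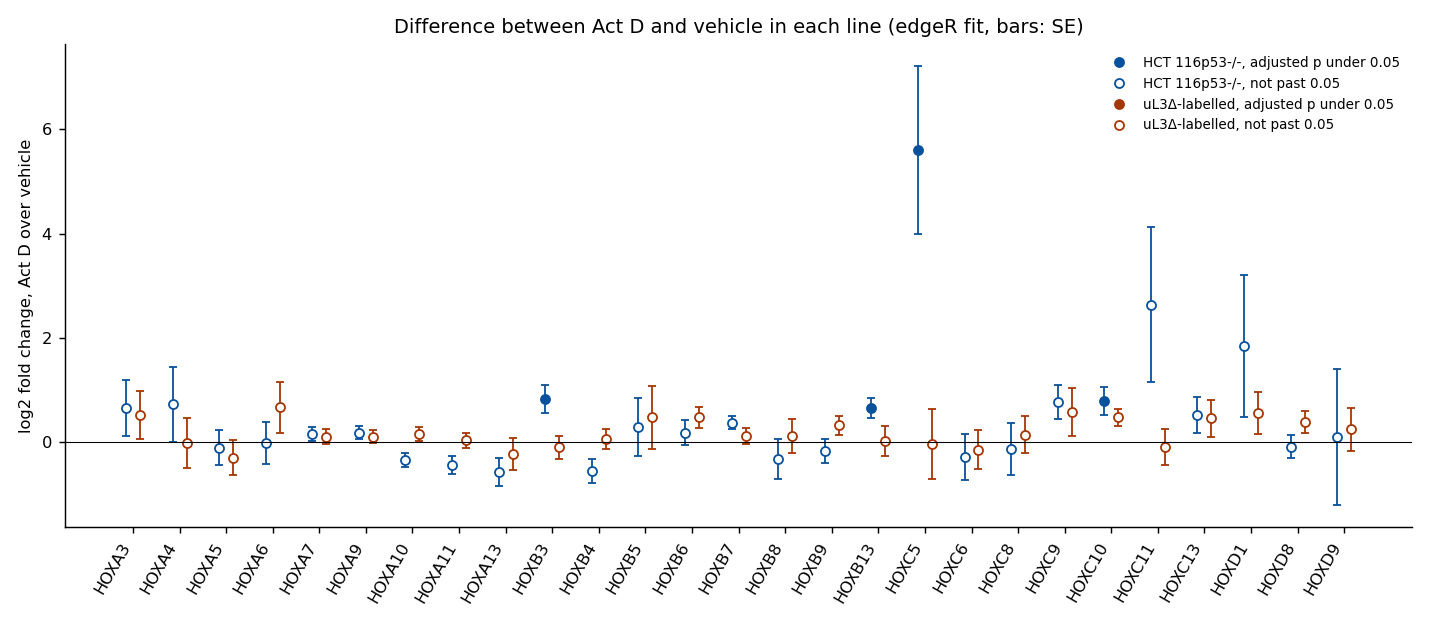
Log2 fold change of Act D over vehicle (edgeR fit, bars are the SE) for the 27 tested members, with HCT 116p53-/- in blue and the libraries labelled uL3Δ in red-brown; filled points passed an adjusted p of 0.05. The 4 filled points are HOXB3, HOXB13, HOXC5 and HOXC10 in HCT 116p53-/- cells, and the height of HOXC5 rests on 0 counts with vehicle.

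Of 18 long non-coding RNAs of the clusters 8 were tested, and with vehicle 6 passed as higher in the uL3Δ libraries and 1 as lower, where 71.3% of all genes passed. HOTAIR, HAGLR, HAGLROS, HOXA-AS2 and HOXA11-AS entered the test through their reads in the uL3Δ libraries, which fixed their direction. HOTAIR, which lies opposite HOXC11 and is known to bind Polycomb, had 0 counts in all 6 HCT 116p53-/- libraries and 8, 27 and 25 with vehicle in those labelled uL3Δ, at least 6.32-fold higher (adjusted p = 1.50e-05, edgeR). HAGLR, which starts beside HOXD1 on the other strand, had 1, 2 and 1 counts against 64, 133 and 78 (log2 difference 5.91, SE 0.39, adjusted p = 2.69e-10). HAGLROS, near it, had 0 counts against 26, 38 and 24, at least 9.64-fold higher. HOXA11-AS had 9, 3 and 5 against 23, 54 and 54 (2.88, SE 0.51, adjusted p = 6.31e-05), in the direction of HOXA11, and HOXA-AS2 had 2, 2 and 1 against 16, 19 and 14.

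HOXA10-AS was the 1 lower RNA, at 109, 120 and 115 counts against 30, 17 and 18 (log2 difference -2.38, SE 0.32, adjusted p = 2.93e-06, edgeR). Its opposite-strand partners HOXA9 and HOXA10 differed by -0.28 each. HOXC-AS1, named after its values were seen, lies opposite HOXC9 and had 13, 6 and 2 counts against 0 in all 6 libraries labelled uL3Δ, at least 2.32-fold lower there with vehicle and not tested. The counting was not stated to use strand, so reads of a coding member and its opposite-strand RNA cannot be told apart where they overlap. This bears on HOXD1, 56.4% of whose 50-base words are shared with such transcripts, and on HOXA11 (25.4%) and HOXD8 (21.5%), among others. For HOXA6 (30.2%), HOXA10 (23.5%) and HOXA9 (21.7%) the shared words include those of opposite-strand RNAs and of other transcripts. HOXC11 and HOXD9 share none.

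Of 13 genes that flank the clusters, 8 were tested and 6 were higher and 1 lower with vehicle (71.3% of all genes passed), with a median log2 difference of 0.33. The lower one, SKAP1 beside HOXB, is named after its values were seen, being under 1 CPM. It had 17, 12 and 7 counts against 2, 1 and 0 (ratio of summed counts 0.082, counting interval 0.0162 to 0.260, adjusted p = 0.000498, edgeR). Beside HOXC, CALCOCO1 was higher by 0.96 (SE 0.12, adjusted p = 1.53e-06, edgeR) and CBX5, which encodes heterochromatin protein HP1 alpha, by 0.48 (SE 0.09). Beside HOXD, MTX2 and LNPK were higher by 0.36 (SE 0.11) and 0.20 (SE 0.09), and beside HOXA, HIBADH by 0.56 (SE 0.10).

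The TALE proteins, partners that bind DNA together with HOX proteins, were listed because HOX function depends on them. Of 9 listed, 8 were tested, and with vehicle 5 passed as higher in the uL3Δ line and 2 as lower, beside 71.3% of all genes. MEIS1 had 2, 0 and 0 counts against 60, 143 and 101 (ratio of summed counts 149.6, counting interval 41.1 to 1241). PBX3 and MEIS2 were higher, with log2 differences of 1.98 (SE 0.15, adjusted p = 1.16e-09, edgeR) and 1.77 (SE 0.15, adjusted p = 1.04e-08). PBX4 had 33, 34 and 24 counts against 0, 2 and 0 (ratio 0.0216, counting interval 0.00258 to 0.0804) and MEIS3 had a log2 difference of -3.25 (SE 0.24). Different family members were thus higher in each line.

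Of 6 ParaHox genes 2, CDX2 among them, were tested and both were lower with vehicle, where 71.3% of all genes passed and 36.2% were lower. Both entered the test through their reads in HCT 116p53-/- libraries, which fixed their direction. CDX2 had 219, 223 and 245 counts in vehicle-treated HCT 116p53-/- libraries and 2, 2 and 4 in those labelled uL3Δ, a log2 difference of -6.37 (SE 0.29, adjusted p = 1.11e-12, edgeR). With Act D it had 317, 347 and 195 counts against 2, 3 and 1. Its level therefore moved with the line, as those of HOXC10 and HOXB13 did, and its part in the HOX values was not tested.

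Of 24 Polycomb genes 6 were higher and 10 lower with vehicle, 66.7% of them against 71.3% of all genes. BMI1 and PHC2, of the first Polycomb complex, were higher by 1.00 (SE 0.09) and 1.09 (SE 0.10), and CBX7, CBX2 and CBX8, its chromodomain subunits, were lower, with log2 differences of -2.21 (SE 0.28), -1.55 (SE 0.11) and -0.74 (SE 0.14). In the second complex EED was higher (0.86, SE 0.11) and SUZ12 (-0.82, SE 0.13) and EZH1 (-1.49, SE 0.15) were lower. Of 16 trithorax and other activators 6 were higher and 5 lower (68.8%), with log2 differences of -0.57 for KMT2A (SE 0.10) and 0.97 for DOT1L (SE 0.16). The medians of the lists were -0.16 and 0.02, beside -0.021 over all genes.

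Retinoic acid is a known inducer of anterior HOX genes. Of its 17 listed pathway genes 12 were tested, 4 higher and 5 lower, 75% of them against 71.3% of all genes. The receptor RARB was higher by 5.53 (SE 0.55, adjusted p = 6.02e-08, edgeR) and the retinol transporter STRA6 by 5.00 (SE 0.17), while the synthesizing enzyme ALDH1A3 was 599 against 9.99 CPM (-5.90, SE 0.11) and CRABP2 was lower too (-3.14, SE 0.16).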

How the data were processed

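RNA-seq was made from 12 libraries, 3 biological replicates per the labels in each of 4 groups of HCT 116p53-/- cells and their uL3Δ derivative with vehicle or Act D (5 nM, 24 h). The authors aligned reads to hg38 and estimated abundance with RSEM 1.2.25, and deposited expected counts with TPM and RSEM's posterior SD of the count as a score of certainty. In 11 tables values were per gene, and in 1, vehicle-treated HCT 116p53-/- replicate 2, per transcript (226788), which were summed per gene. The strand setting of the counting was not given in the sources used here.

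Expected counts were rounded and 15692 of 33990 genes with any rounded count passed edgeR's filterByExpr. They were scaled by TMM (factors 0.847 to 1.148) and fitted over all 4 groups with edgeR 4.0.16 (R 4.3.3) by glmQLFit and glmQLFTest (common dispersion 0.0117), with Benjamini-Hochberg adjustment over all genes tested and a threshold of 0.05. Log2 differences between lines are uL3Δ relative to HCT 116p53-/-. DESeq2 1.42.0 was an alternative. Other steps used Python 3.11, pandas 2.3.3 and scipy 1.17.1, and the statistical scripts were tested on simulated data. Of 60617 identifiers 60261 matched GENCODE v44 (hg38), the source of coordinates.

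Ratios of summed counts were scaled by library and carry 95% exact (Clopper-Pearson) intervals. A group at 0 was set to 3 counts per library. Intervals and floors cover counting error only. The members, the other lists and the tests were chosen with earlier results of these data known. Members past the threshold in any comparison were given with statistics, and of each other list up to 5 genes per direction, by size of the difference between the lines with vehicle, were open to naming if they passed, did not overlap and reached 1 CPM in a group; the genes of undetected markers are named as such. The alternatives were other scalings, filters, groups in the fit, a replicate block, leaving out each library and other detection rules.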

Additional observations from a re-analysis of the deposited data

How the results depend on the processing

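Of the 43 calls of a member in a comparison, 34 kept their direction and side of the threshold under all alternatives that gave a value, 9 were lost under at least 1 and 0 reversed. Between the lines 17 of 21 calls with vehicle and 17 of 18 with Act D were kept throughout, and leaving out each library gave 14 to 16 higher and 4 to 6 lower with vehicle, and 14 to 15 and 3 to 4 with Act D. In HCT 116p53-/- cells 4 members were higher with Act D, but 1 with scaling by library size alone, 2 with no filter on low counts and 0 to 5 when each library was left out (1 without vehicle replicate 1, 2 without vehicle replicate 2, Act D replicate 2 or 3 or uL3Δ vehicle replicate 2, and 0 without vehicle replicate 3). Lower members were 0, but 1 with library size alone and 0 to 2 when each library was left out, with 2 without Act D replicate 2. In the libraries labelled uL3Δ 1 member was higher with upper-quartile scaling. The interaction gave 1 lower member with no filter and 0 to 1 when each library was left out, the 1 without uL3Δ Act D replicate 2. With library size alone the median log2 difference of all genes between the lines moved from -0.021 to -0.261 with vehicle. At 0.5 TPM or more in at least 2 of 3 libraries, 17 members were detected in HCT 116p53-/- cells and 18 in the uL3Δ line with vehicle, and 17 and 19 with Act D, so that the gap of 24 against 30 with vehicle nearly closed. The cause of these changes was not tested.

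The replicate numbers did not pair the libraries, since deviations of same-numbered libraries correlated at -0.104 to 0.101. With the replicate block 16 members were higher and 5 lower between the lines with vehicle, 14 and 4 with Act D, and 2 were higher with Act D in HCT 116p53-/- cells. Depth limits the low members: 3 counts correspond to 0.15 to 0.348 CPM.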
